A study of Caenorhabditis elegans and Caenorhabditis briggsae with 12 samples.

Results

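The globin genes of *C. elegans* were examined before and after heat shock. They were taken as every gene in the table of normalized counts whose name is glb followed by a number. This gave 34 genes of the 20213 in the table, and all 34 had a mean of at least 2 normalized counts and were tested. RNA-seq had been carried out on whole L2 larvae of *C. elegans* N2, the laboratory wild type strain, and of *C. briggsae* AF16, a related nematode. Each strain had 3 biological replicates kept at 20 °C (non-heat shock, NHS) and 3 placed at 34 °C for 30 min (heat shock, HS), which makes 12 libraries. No transgene, mutation or other agent was part of any group.

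Globins are small heme proteins that bind oxygen and related gases or pass electrons through the heme iron. *C. elegans* carries many more globin genes than vertebrates do, and most *C. elegans* globins are known from reporter genes to be made in neurons, often in few cells. The best described ones include *glb-1*, a myoglobin-like oxygen binder made in muscle and other tissues, and *glb-5*, which tunes how sensory neurons respond to oxygen. N2 carries an altered form of *glb-5*.

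The depth of the *C. elegans* libraries was estimated from the spacing of low values at 28600000 to 44000000 reads. The normalized counts summed to between 32228419 and 32533962 in NHS and between 39420280 and 43048830 in HS. Of the 10 neuronal marker genes, such as those for synaptic vesicle proteins, none was at 0 and all 10 were lower in each HS library than in each NHS library, with a summed level of 26411 to 28592 in NHS and 21349 to 22299 in HS, where 25.5% of all genes tested were lower in this way. The 6 body wall muscle markers were all higher in each HS library, as were 30.6% of all genes, with sums of 660304 to 719063 and 841659 to 918727. The library totals were higher in HS as well. Divided by these totals, the muscle sums overlap between the groups. Of 6 yolk protein genes, which belong to adults rather than L2 larvae, 5 were called up, against 10.2% of all genes, at sums of 47.6 to 63.9 in NHS and 157 to 280 in HS. The part of these shifts in the globin values was not tested. In whole larvae, fewer cells of a type and less RNA per cell cannot be told apart.

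The globin genes encode proteins of 159 codons (*glb-1*) to 546 codons (*glb-33*), with a median of 269, in 2 to 10 exons. They lie on all 6 chromosomes, with 10 genes on V, 7 on II, 6 on IV, 5 on X and 3 each on I and III. The family is scattered rather than clustered. Only *glb-5* (chromosome V, 5558890 to 5564263, plus strand) and *glb-6* (5568184 to 5570533, minus strand) have no coding gene between them, 3921 bases apart in the WBcel235 annotation. One member, *glb-30*, overlaps another gene on the same strand, and 15 overlap a gene on the opposite strand, in libraries that keep the strand.

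Before heat shock, 1 globin stood far above the rest. *glb-1* was at 3422, 2657 and 2361 normalized counts per kb of exon in the 3 NHS libraries, with a mean of 2813, which places it above 94.5% of all genes with a length. *glb-33*, whose product joins a membrane part like that of a neuropeptide receptor to a globin domain, came next at 453 per kb (range 440 to 478). *glb-11* followed at 378 per kb, *glb-18* at 359 and *glb-24* at 211. The neighbours *glb-11* and *glb-18* overlapped in their 3 libraries, while *glb-1* and *glb-33*, *glb-33* and *glb-11*, and *glb-18* and *glb-24* did not. Of the 33 neighbouring pairs in the order of unheated levels, 10 did not overlap. At the lower end stood *glb-5* at 32.4 per kb, *glb-31* at 15.9 and *glb-21* at 14.6. The median over the family was 113 per kb, beside 91.9 for the 20109 genes with a length. This set also holds genes with a mean under 2 normalized counts, which were not tested, while every globin gene was tested. These medians therefore do not show whether the family lay above or below the typical tested gene. The share of 94.5% given for *glb-1* rests on the same wider set.

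After heat shock a part of the family was lower and a single member was higher. A gene was called where the adjusted p was under 0.01 and the change exceeded 2-fold. Of the 34 globin genes, 8 were called down (23.5%) and 1 was called up, while over all 17551 genes tested 2.77% were called down and 10.2% up. With no minimum fold, 16 globin genes (47.1%) were lower at an adjusted p under 0.01, against 12.9% of all genes, and 1 was higher, against 15.8%. After scaling to equal totals, 17 globin genes were called down, and 7.6% of all genes. The count of 16 fell to 10 without NHS replicate 1, 2 or 3 and to 12 without HS replicate 1. It was 23 after scaling to equal totals, where the median log2 fold change of all genes was -0.32. The share of all genes lower at any fold is not given for these settings. All 3 HS libraries lay below all 3 NHS libraries for 22 globin genes (64.7%), and above them for 2, where all genes gave 25.5% and 30.6%. The median log2 fold change of the family was -0.66, with quartiles of -0.97 and -0.18, and that of all genes tested was 0.04. A negative log2 fold change was found for 28 members (82.4%), against 46.8% of all genes.

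**Figure D1:**
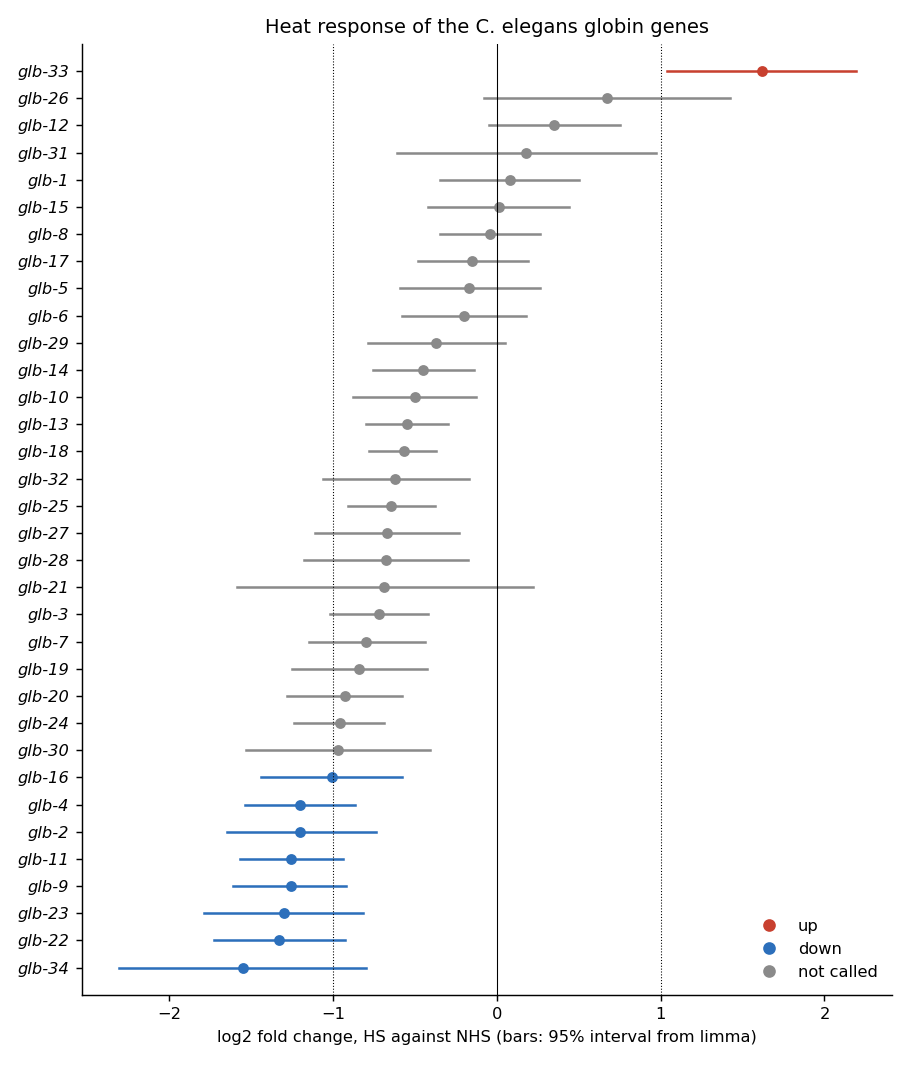
Fitted log2 fold change (HS against NHS, horizontal axis) of each of the 34 *C. elegans* globin genes, with 95% intervals from limma and 3 libraries a group. The 8 genes called down and *glb-33*, called up, are coloured, the dotted lines mark 2-fold, and 28 of the 34 points lie to the left of 0.

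The gene called up was *glb-33* (WBGene00022284, chromosome V, 1352126 to 1356594, plus strand). Its normalized counts were 902, 830 and 833 in NHS and 2938, 1843 and 3323 in HS. Every HS library was well above every NHS library, and the HS libraries differed more among themselves than the NHS libraries did. The mean went from 855 ± 40.9 to 2701 ± 768 (SD, n = 3), a log2 fold change of 1.62 ± 0.23 (SE) with a limma adjusted p of 0.0031. The call was lost, with adjusted p of up to 0.016, when NHS replicate 1, 2 or 3 or HS replicate 1 was left out, and the log2 fold change ranged from 1.44 to 1.87 over the 6 omissions.

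The 8 genes called down were *glb-34*, *glb-22*, *glb-23*, *glb-9*, *glb-11*, *glb-4*, *glb-2* and *glb-16*, in order of the size of the fall. In all of them the HS libraries lay below the NHS libraries without overlap. The genes were called on these same libraries, so this separation largely follows from the call and adds no support to it. The strongest fall was that of *glb-34* (WBGene00077763, chromosome IV, 14570158 to 14572707, minus strand), with normalized counts of 99.1, 78.4 and 75 in NHS and 38.5, 36.3 and 15.2 in HS. It went from 84.2 ± 13 to 30 ± 12.9 (SD, n = 3), with a log2 fold change of -1.55 ± 0.33 (SE) and a limma adjusted p of 0.0054. The lowest HS value rests on about 11 reads, and the call was lost without NHS replicate 1, 2 or 3, with an adjusted p of up to 0.026.

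*glb-22* (WBGene00011251, chromosome V, 14600272 to 14606538) had 207, 225 and 198 normalized counts in NHS and 66.1, 80.1 and 108 in HS. The groups were apart by a wide margin. Its log2 fold change was -1.33 ± 0.18 (SE, limma adjusted p = 3.6e-04). *glb-23* (WBGene00020045, chromosome IV, 7218049 to 7219498) had 153, 139 and 155 in NHS and 69.9, 73.8 and 41.4 in HS, and its lowest library was HS replicate 3. The fitted change was -1.30 ± 0.21 (adjusted p = 0.0011). On the same chromosome lies *glb-2* (WBGene00015536, 7262063 to 7263237), the nearest globin to *glb-23* with 13 coding genes between them. Its values were 110, 109 and 89.6 in NHS and 38.3, 38.5 and 58 in HS, and here HS replicate 3 was the highest of the heated libraries. The log2 fold change was -1.20 ± 0.20 (adjusted p = 0.0013).

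*glb-9* (WBGene00016184, chromosome II, 7507121 to 7519321) went from 162, 133 and 156 normalized counts to 55.1, 61 and 70.1, a tight fall in all HS libraries (log2 fold change -1.26 ± 0.15, limma adjusted p = 2.3e-04). *glb-11* (WBGene00007981, chromosome III, 3989298 to 3992189), the most abundant per kb of the genes called down, went from 386, 409 and 422 to 139, 168 and 207. Its means were 406 ± 18.1 and 171 ± 34.2 (SD, n = 3), and the log2 fold change was -1.26 ± 0.14 (limma adjusted p = 1.4e-04). None of these HS values came near the NHS range.

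*glb-4* (WBGene00007502, chromosome II, 11109571 to 11111207) fell from 116, 139 and 133 normalized counts to 60.3, 54.1 and 52.4, with little spread within either group (-1.20 ± 0.15 on the log2 scale, limma adjusted p = 2.6e-04). *glb-16* (WBGene00018486, chromosome X, 7537809 to 7540133) had 55, 56.8 and 62.1 in NHS and 24.9, 31.2 and 29 in HS. Both groups were narrow and apart, and the log2 fold change of -1.01 ± 0.19 (adjusted p = 0.0024) lay just past the 2-fold threshold. *glb-16* was no longer called when HS replicate 1 or any one of the NHS libraries was left out (adjusted p of up to 0.014), nor with a pseudocount of 5, where the log2 fold change was -0.92.

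**Figure D2:**
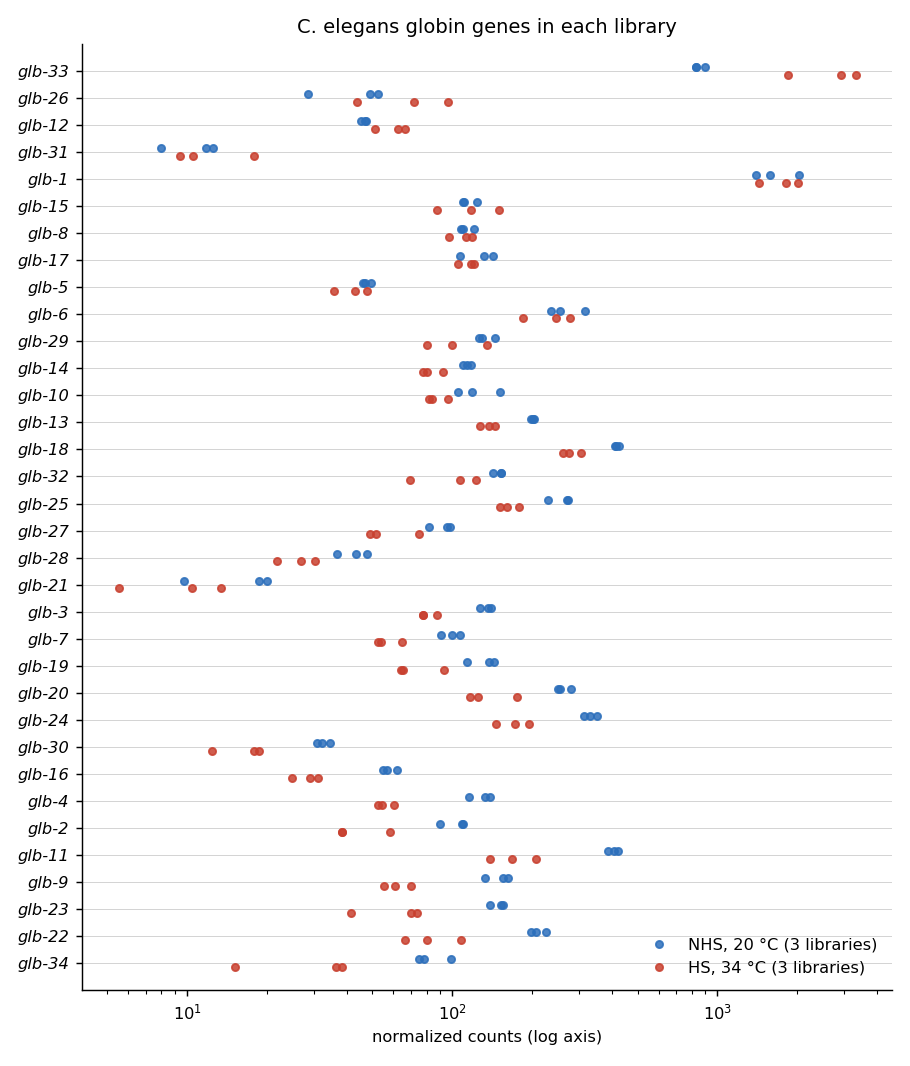
Normalized counts (horizontal axis, log scale) of the 34 globin genes in the 3 NHS (blue) and 3 HS (red) libraries of *C. elegans*, ordered by log2 fold change. Each point is 1 library. The HS points of *glb-33* lie between 1843 and 3323, above its NHS points, and those of *glb-1* overlap between the groups.

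A further 8 globin genes were lower in HS at an adjusted p under 0.01 with a fold change under 2. These were *glb-24*, *glb-20*, *glb-19*, *glb-7*, *glb-3*, *glb-25*, *glb-18* and *glb-13*, with log2 fold changes from -0.96 to -0.55. *glb-24*, nearest to the threshold, had 330, 351 and 313 normalized counts in NHS and 146, 172 and 194 in HS (-0.96 ± 0.12, limma adjusted p = 2.9e-04). *glb-18*, among the most abundant members per kb, had 412, 425 and 414 in NHS and 261, 305 and 275 in HS, and its HS libraries stayed clear of the NHS libraries (-0.57 ± 0.09, adjusted p = 9.7e-04). *glb-13*, a globin described in neurons, had 201, 199 and 203 in NHS and 127, 138 and 145 in HS. Its NHS libraries were almost equal, and its log2 fold change was -0.55 ± 0.11 (adjusted p = 0.0032). Across the 34 members the unheated level per kb and the log2 fold change had a Spearman coefficient of -0.08. It was -0.27 over 32 members without *glb-1* and *glb-33*, a set that leaves out the only member called up. The points share the same 6 libraries. The unheated values also enter both measures, which by itself pushes the coefficient towards negative values, so no relation is read from it.

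For 17 globin genes the adjusted p was 0.01 or more, with 12 negative and 5 positive log2 fold changes. The most abundant globin was among them. *glb-1* (WBGene00014030, chromosome III, 8922399 to 8923290) had 2033, 1578 and 1402 normalized counts in NHS and 2008, 1823 and 1438 in HS. The groups overlapped almost fully, with means of 1671 ± 325 and 1756 ± 291 (SD, n = 3). The log2 fold change was 0.08, with a 95% interval of -0.35 to 0.50 (limma adjusted p = 0.75), and was -0.28 after scaling to equal totals.

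*glb-5*, the modulator of oxygen responses in sensory neurons, had 49.2, 46.8 and 46.1 normalized counts in NHS and 43.1, 47.8 and 35.9 in HS. Its groups overlapped, with a log2 fold change of -0.17 and an interval of -0.59 to 0.26 (limma adjusted p = 0.5). Its neighbour *glb-6*, which encodes a neuronal globin whose heme iron is bound on both sides by histidines, had 235, 256 and 318 in NHS and 185, 279 and 246 in HS. Here too the groups overlapped (-0.20, interval -0.58 to 0.18, adjusted p = 0.36). *glb-12*, which takes part in redox signalling in the reproductive system, had 47.2, 46.8 and 45.2 in NHS and 62.2, 66.5 and 51.1 in HS. It was the only uncalled member with every HS library above every NHS library, and its log2 fold change of 0.35 (interval -0.05 to 0.75) did not pass the test (adjusted p = 0.13).

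*glb-26*, a globin with a lipid anchor made in the head mesodermal cell and an enteric muscle, had 28.5, 52.6 and 48.8 normalized counts in NHS and 71.8, 43.7 and 96.6 in HS. HS replicate 2 lay within the NHS range, and the log2 fold change was 0.67, with an interval of -0.08 to 1.42 (limma adjusted p = 0.13). *glb-31* was near the lower limit of the family, with 11.8, 12.5 and 7.98 in NHS and 10.5, 9.36 and 17.9 in HS, and its groups overlapped (0.18, interval -0.61 to 0.97, adjusted p = 0.7). *glb-30*, with 32.4, 30.9 and 34.6 in NHS and 12.4, 18.7 and 17.9 in HS, missed the threshold narrowly (-0.97, adjusted p = 0.011), and its value is uncertain where it overlaps *Y22D7AR.3* on the same strand. The remaining members of this group were *glb-8*, *glb-10*, *glb-14*, *glb-15*, *glb-17*, *glb-21*, *glb-27*, *glb-28*, *glb-29* and *glb-32*, with log2 fold changes from -0.69 (*glb-21*) to 0.01 (*glb-15*).

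In the normalized counts without further scaling, the summed level of the whole family overlapped between the groups. All 34 genes together gave 7870, 7086 and 6781 normalized counts per kb in NHS and 7295, 6628 and 6794 in HS. The 32 genes other than *glb-1* and *glb-33* gave 3970, 3989 and 3979 in NHS and 2356, 2582 and 2612 in HS. Their HS mean was 63.2% of the NHS mean. This set leaves out *glb-1*, whose groups overlapped, and *glb-33*, the only member called up. Its lower sum therefore follows in part from the choice of genes. *glb-33* made up 6.27 ± 0.222% of the family's sum in NHS and 20.7 ± 5.63% in HS (SD, n = 3), with 21.4, 14.7 and 25.9% in the HS libraries. The share of *glb-1* overlapped between the groups, at 38.6 ± 4.44% and 42.8 ± 6.17%. These sums are given as a description without a test. They depend on the scaling, since the library totals were 32228419 to 32533962 in NHS and 39420280 to 43048830 in HS. Scaling to equal totals would lower the HS sums relative to the NHS sums. With each sum divided by the total of its library, every HS sum of the whole family lies below every NHS sum. The overlap therefore does not hold on that scale.

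**Figure D3:**
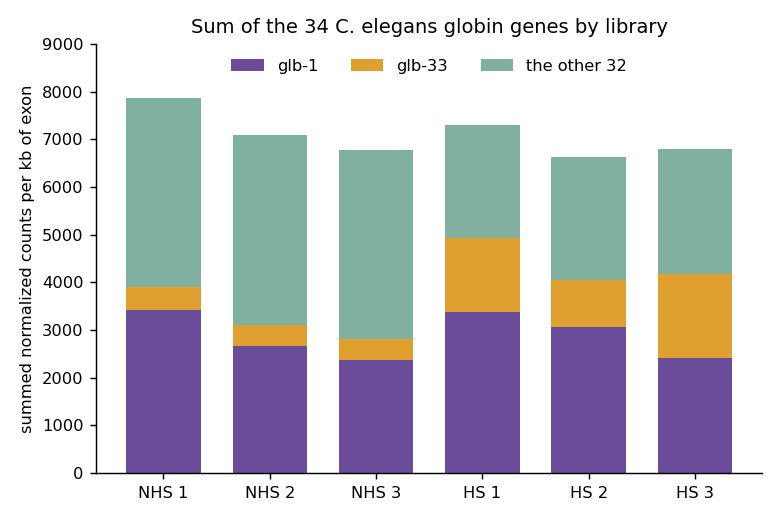
Normalized counts per kb of exon (vertical axis) summed over the 34 globin genes in each *C. elegans* library, split into *glb-1*, *glb-33* and the other 32 genes. The block of the other 32 is between 3970 and 3989 in NHS and between 2356 and 2612 in HS. The block of *glb-33*, set apart as the only member called up, is larger in each HS library.

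In *C. briggsae*, 6 genes are given a globin name in the study's tables. *Cbr-glb-34* is named there because it was called on these libraries, *Cbr-glb-33* as the ortholog of a called gene, and the other 4 in a general list. Each was set beside its namesake by fold change only, since the tables were normalized separately, and the differences between species were not tested. *Cbr-glb-1* had 1754, 1755 and 1827 normalized counts in NHS and 1388, 1883 and 1536 in HS. As for *glb-1*, the groups overlapped, with a log2 fold change of -0.16 and an interval of -0.41 to 0.09 (limma adjusted p = 0.28).

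*Cbr-glb-33* had 677, 663 and 667 normalized counts in NHS and 844, 780 and 811 in HS. All HS libraries were higher, as they were for 25.7% of the 18470 *C. briggsae* genes tested. The log2 fold change was 0.28 ± 0.07 (SE), beside 1.62 for *glb-33*, did not pass the threshold (limma adjusted p = 0.018), and was -0.11 after scaling to equal totals. *Cbr-glb-34* had 35.5, 27.4 and 38 in NHS and 70.6, 110 and 111 in HS. Every HS library was above every NHS library, the opposite of *glb-34*, and the log2 fold change of 1.49 ± 0.24 is given without a p because the gene was named through its call. In *C. briggsae*, 4.5% of the genes tested were called up. *Cbr-glb-34* stayed past the thresholds in only 1 of the 6 omissions of a library, that of HS replicate 1, and its log2 fold change ranged from 1.35 to 1.70.

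*Cbr-glb-13* had 217, 197 and 250 normalized counts in NHS and 153, 171 and 151 in HS. Its HS libraries were all lower, as for 24.3% of the genes tested and as for *glb-13*, with a log2 fold change of -0.47 ± 0.13 (limma adjusted p = 0.028), above the threshold of 0.01. *Cbr-glb-10* overlapped between the groups, with 113, 125 and 132 in NHS and a mean of 112 ± 8.12 (SD, n = 3) in HS (-0.14, interval -0.45 to 0.17, adjusted p = 0.45). *Cbr-glb-27* had 159, 178 and 182 in NHS and 75.9, 175 and 169 in HS. Only HS replicate 1 stood clearly below the rest (-0.40, interval -1.13 to 0.33, adjusted p = 0.36).

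**Figure D4:**
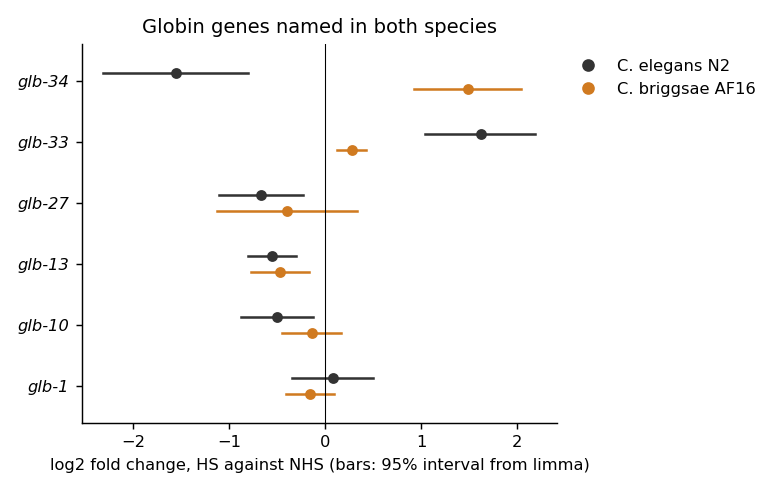
Log2 fold change (HS against NHS, horizontal axis) with 95% limma intervals for the 6 globin genes named in both species, *C. elegans* N2 beside *C. briggsae* AF16, 3 libraries a group. *glb-34* is at -1.55 and *Cbr-glb-34* at 1.49, on opposite sides of 0, and the difference was not tested. *Cbr-glb-34* was named through its call on these libraries, so its interval cannot be read as a test.

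Genes known to work beside globins were counted in the same fit. Of 11 genes of the oxygen sensing neurons, 1 was called up and 1 down, against 10.2% and 2.77% of all genes, and the median log2 fold change was -0.64. With no minimum fold, 4 were lower, 1 was higher and 6 did not pass, where 12.9% of all genes were lower and 15.8% higher. *gcy-34*, one of the soluble guanylate cyclases through which these neurons signal, rose from 54.1, 80.2 and 43.5 normalized counts to 251, 249 and 299 (2.19 ± 0.21, limma adjusted p = 6.9e-05). Its relative *gcy-32* fell from 191, 198 and 139 to 73.7, 61.3 and 66.2 (-1.36 ± 0.17, adjusted p = 2.4e-04). Both changes left the groups without overlap and ran in opposite directions.

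Of 10 genes of the hypoxia pathway of the transcription factor HIF-1, none was called up and 1 was called down, with a median of -0.35, where all genes gave 10.2% and 2.77%. This was *F22B5.4*, a known HIF-1 target in hypoxia, with 109, 102 and 83.4 normalized counts in NHS and 21.1, 16.6 and 24.8 in HS (-2.19 ± 0.21, limma adjusted p = 6.9e-05). With no minimum fold, 4 of the 10 were lower and 1 was higher, against 12.9% and 15.8% of all genes. Of 9 heme trafficking genes, 1 was called down and none up, against 2.77% and 10.2% of all genes, with a median of -0.27. With no minimum fold 2 were lower, against 12.9% of all genes. *hrg-7*, which encodes a secreted protein that carries signals on heme status between tissues, had 27884, 23223 and 24697 in NHS and 5500, 5103 and 6430 in HS (-2.16 ± 0.10, adjusted p = 3.1e-06). The HS levels of both genes were far below their NHS levels.

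**Figure D5:**
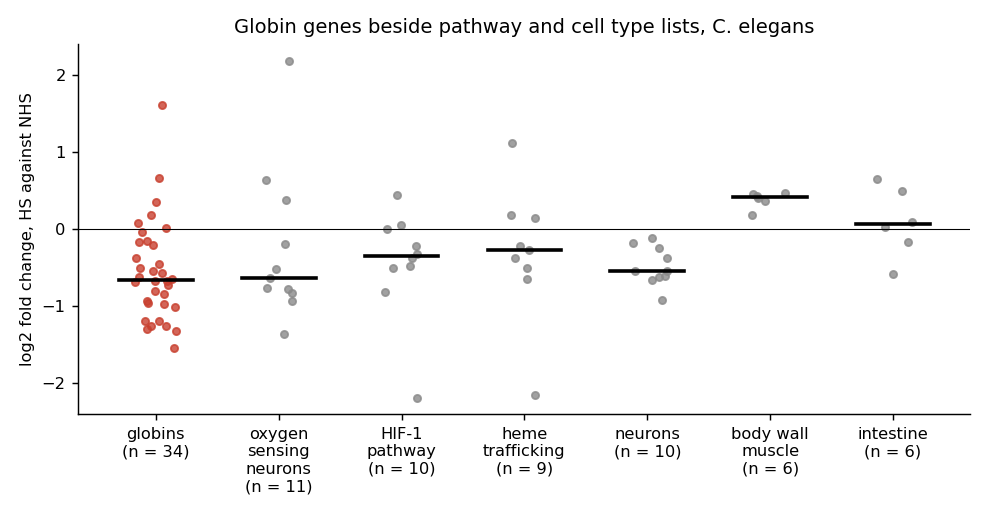
Log2 fold change (HS against NHS, vertical axis) of each tested gene of the globin family and of lists of other genes in *C. elegans*. These are the pathway lists and the neuronal, body wall muscle and intestinal markers, with a bar at each median. The hypodermal markers (median -0.73) and the yolk protein genes (median 2.88) are not drawn. The globin median is -0.66, that of the 10 neuronal markers -0.54 and that of the 6 body wall muscle markers 0.41. All values are from the normalized counts without scaling to equal totals.

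The median log2 fold change was negative for the globin family, the neuronal markers and the hypodermal markers. It was also negative for the oxygen sensing, HIF-1 and heme trafficking lists. Of the 10 neuronal markers, none was called up or down, against 10.2% and 2.77% of all genes. At an adjusted p under 0.01 with no minimum fold, 6 were lower, against 12.9% of all genes. Among 6 measured intestinal markers none was called, and the median was 0.06. With no minimum fold 2 were higher and 1 was lower, against 15.8% and 12.9% of all genes. Among 4 hypodermal markers none was called, 1 was lower with no minimum fold, against 12.9% of all genes, and the median was -0.73. Over all genes 10.2% were called up and 2.77% down, so no call among so few markers is close to these shares. The part of neuronal RNA in the globin values was not tested.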

How the data were processed

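The authors made total RNA libraries with a stranded kit, assigned reads to transcripts with Salmon 0.13.1, and divided gene estimates by DESeq2 1.18.1 normalization factors for the 6 libraries of each species. The deposited values are these normalized counts, a signal and not whole reads, so no count test was run. Dividing by one shared read value did not give whole numbers for all genes. One *C. briggsae* column named with another strain number was taken as NHS replicate 3 of AF16. No pair of libraries was identical, and 0 columns were left unused.

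Values were taken as log2(normalized count + 1), so fold changes of low genes are understated. Every gene with a mean of at least 2 entered a two-sided limma test (version 3.58.1, R 4.3.3) with trended, robust variances, and p-values were adjusted by Benjamini-Hochberg across every tested gene of that species. Calls needed an adjusted p under 0.01 and more than a 2-fold change, as in the study. Each species was fitted by itself. The depth of a library was estimated as its sum divided by the value of 1 read, 28600000 to 44000000 reads in N2 and 34000000 to 52600000 in AF16. Gene positions and lengths came from Ensembl release 115 (WBcel235), in which all 34 globin genes were found, and 19868 of 20213 identifiers had a symbol. Levels per kb are per length of merged exons.

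The members, the gene lists and the tests were chosen with earlier results of these data known. The genes given with library values are all called members, *glb-1*, the 5 highest unheated levels per kb, the 5 largest rises and falls, members with a described role, called list members other than the yolk genes, and the *C. briggsae* genes named as globins. *glb-30* was added after its values were seen. Other settings tried were a pseudocount of 0.5 or 5, a filter at a mean of 10 or none, TMM scaling, equal totals, a replicate term, no minimum fold, an adjusted p under 0.05 and leaving out each library. The intestinal marker *opt-2* was not matched. The fit was tested on simulated data. Of genes given a log2 change of 1.5 in either direction, 75% were called for N2 and 76% for AF16. At a change of 2 these shares were 79% and 86%. Of unchanged genes, 0.01% were called.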

Additional observations from a re-analysis of the deposited data

Results flagged for a closer look

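*glb-34* and its namesake *Cbr-glb-34* went in opposite directions under heat shock. The log2 fold change was -1.55 for *glb-34*, with every HS library of N2 below every NHS library, and 1.49 for *Cbr-glb-34*, with every HS library of AF16 above every NHS library. The difference between the species was not tested, and *Cbr-glb-34* was named through its own call. The unheated means were 84.2 and 33.6 normalized counts. Without NHS replicate 1, 2 or 3 neither gene was called, and *Cbr-glb-34* was not called without HS replicate 2 or 3 either.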

How the results depend on the processing

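The number of globin genes called down was 8, and was 17 after scaling to equal totals, where the share of all genes called down went from 2.77% to 7.6%, and 16 with no minimum fold change. Leaving out 1 library gave 6 to 11, with 1.91% to 3.43% of all genes called down. The number called up was 1, and 0 to 1 when 1 library was left out. A replicate block gave 8 down and 1 up. Deviations of libraries with the same number had a correlation of 0.0882, 0.0635 and 0.149 in N2 and of 0.0213, 0.078 and 0.0669 in AF16. Not every pair was above 0.1, so the numbers were not taken as pairing the libraries, but each library correlated best with its own number, and a weak shared effect was not tested further. With equal totals the median over all genes went from 0.04 to -0.32 on the log2 scale and that over the globin genes from -0.66 to -1.01, a gap of -0.70 and -0.69. Over all settings this gap ranged from -0.61 to -0.77. Some uncalled genes changed sign. *glb-1* was at -0.28 with equal totals and between -0.04 and 0.23 when 1 library was left out. *glb-8* was between -0.11 and 0.04 when 1 library was left out. *glb-15* was at 0.00 with TMM scaling, at -0.34 with equal totals and between -0.18 and 0.21 when 1 library was left out. *glb-31* was at -0.14 with equal totals and between -0.08 and 0.35 when 1 library was left out. *Cbr-glb-33* was at -0.11 with equal totals. Equal totals also brought a call to 9 more globin genes. The cause of these shifts was not tested. With 3 libraries a group and low HS values, as for *glb-34*, *glb-21* and *glb-31*, whether a change passes 2-fold is uncertain.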
